A study of Rattus norvegicus with 12 samples.

Results

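Cellular iron handling was examined in the left ventricle of 12 rats through 10 genes: the uptake genes Tfrc, Slc11a2 and Slc39a14, the ferritin genes Fth1 and Ftl1, the export gene Slc40a1, its hormone Hamp and the Hamp regulator Hfe, and the iron regulatory protein genes Ireb2 and Aco1. The genes were chosen by their symbols, with earlier results of these data known, and they took up 11 of the 34700 rows of the gene table because Slc40a1 has 2 rows. RNA sequencing had been done on 3 male Sprague-Dawley rats in each of 4 groups. All rats were 8 weeks old at surgery, and their hearts were taken 12 weeks later. The Sham rats had the left anterior descending coronary artery threaded but not tied, and the HF rats had it ligated, which gives heart failure after infarction. Neither of these groups exercised. The study gave Sham and HF rats water by gavage in its BAIBA experiment, and states no gavage for those of its exercise experiment. The sample titles do not say from which experiment the Sham and HF rats came. The HFE rats had the same ligation and ran on a treadmill for 60 min on 5 days a week over 8 weeks, at 50% to 60% of their maximum intensity. The BAIBA rats had the ligation and were given 75 mg/kg/day of β-aminoisobutyric acid by gavage over 8 weeks, a small molecule released by contracting muscle. The model is a surgical infarct of varying size, and rats were allotted to groups 4 weeks after surgery by ejection fraction. The study's methods place the BAIBA tissue around the infarct and the other tissue in the anterior wall, and its results place the HF tissue around the infarct too. Treatment and sampling site therefore cannot be told apart in comparisons with the BAIBA group. If the HF tissue lay around the infarct, site may also differ in HF against Sham and in HFE against HF. It cannot be told apart from infarction or exercise there.

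Cells take up iron bound to transferrin through the transferrin receptor, reduce it in endosomes and move it to the cytosol, where it is used in heme and iron-sulphur clusters or stored in ferritin. Ferroportin, the Slc40a1 protein, exports iron, and hepcidin, the Hamp product, removes ferroportin from the membrane. When iron is scarce, the iron regulatory proteins bind hairpins in these mRNAs, which stabilises Tfrc mRNA and blocks the translation of ferritin. In heart muscle the transferrin receptor supplies the iron that the mitochondria need.

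Between 14812541 and 19732588 reads were counted on genes per rat, and levels are given as CPM (gene counts relative to library size, scaled with TMM factors over the 12 rats). Of the 11 rows, 9 passed the filter on low counts over the 12 rats. Fth1 and the second Slc40a1 row did not. Calls needed a Benjamini-Hochberg adjusted p under 0.05 over all genes tested and a log2 fold change above 1 or below -1. The summed level of 8 cardiomyocyte markers was 50142 to 52369 CPM in the Sham rats and 42967 to 45640 CPM in the HF rats, without overlap. It was 44251 to 50303 CPM in the HFE rats and 43647 to 50519 CPM in the BAIBA rats. In HF against Sham 7 of the 8 estimates were below 0 (7193 of 14957 for all genes), with a median log2 fold change of -0.03. Of them 2 had an unadjusted p under 0.05 (6.0% of all genes), both lower. DESeq2 gave -0.62 for Myh6 (adjusted p = 0.000721). BAIBA rat 1 stood apart: its 10 macrophage markers summed to 1031 CPM, of which 763 CPM was Lyz2, against 111 to 257 CPM in the other 11 rats, and its 8 fibroblast and scar markers to 1442 CPM, against 598 to 984 CPM. Values below that moved by over 1.5 times without this library are also given without it. The sum of the scar markers was 618 to 806 CPM in the HF group and 821 to 984 CPM in the Sham group, so these markers were not higher in the infarcted group. The 6 atrial markers summed to 181 to 517 CPM in the Sham rats and 131 to 649 CPM in the HF rats. They summed to 119 to 274 CPM in the HFE rats, and to 297, 101 and 82.3 CPM in the BAIBA rats. The 6 epicardial and mesothelial markers summed to 95.1, 31.4 and 49.8 CPM in the BAIBA rats and to 25.3 to 33.8 CPM in the others. In fits with all rats, DESeq2 called the atrial marker Myl7 lower in BAIBA against HF and against Sham. It also called the atrial marker Sln lower in BAIBA against Sham. The mesothelial markers Msln, Upk1b and Upk3b were called higher in BAIBA against HFE, and Msln was called lower in HFE against Sham (-5.84, DESeq2 adjusted p = 0.00763). The part of such tissue in the differences below was not tested. In these bulk samples fewer cells of a type and less RNA per cell cannot be told apart.

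Tfrc had the largest log2 fold change of the members, and Hamp the largest spread within groups, and the 250 bases before their annotated starts are shown for that reason. They are from RefSeq (assembly GRCr8), which gave 7 windows for 6 of the 10 genes. Capitals mark every match to the 4 motifs searched.
Tfrc, chr11:81690319-81690568, minus strand: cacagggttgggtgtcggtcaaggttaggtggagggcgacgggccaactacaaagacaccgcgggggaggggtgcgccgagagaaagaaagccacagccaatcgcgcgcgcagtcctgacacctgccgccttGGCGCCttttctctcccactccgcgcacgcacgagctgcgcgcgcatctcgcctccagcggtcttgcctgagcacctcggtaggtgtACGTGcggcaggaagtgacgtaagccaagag
Hamp, chr1:95300272-95300521, minus strand: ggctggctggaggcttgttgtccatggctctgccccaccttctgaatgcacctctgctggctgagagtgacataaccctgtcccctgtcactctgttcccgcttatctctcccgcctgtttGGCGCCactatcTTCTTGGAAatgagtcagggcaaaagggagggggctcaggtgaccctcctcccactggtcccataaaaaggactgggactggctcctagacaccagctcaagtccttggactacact
The motifs were searched on both strands. The hypoxia response core ACGTG was found in Tfrc alone of the 7 windows, from 31 to 27 bases before the start, and in 16.6% of all 33469 windows of this length. The BMP response element GGCGCC was found in Hamp, from 129 to 124 bases before the start, and in Tfrc, and in 8.69% of all windows. The STAT site TTCNNNGAA was found in Hamp, from 117 to 109 bases before the start, and in 7.67% of all windows. The antioxidant response element TGACNNNGC was in none of the 7 windows and in 10.1% of all windows. No 2 of the marked matches overlap. A match is a description of these letters and not of a factor bound there.

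Tfrc, which encodes the transferrin receptor, had its highest levels in the exercised rats. It was at 84.6, 68.8 and 97.8 CPM in the HFE rats, at 58.7, 30.3 and 31.5 CPM in the HF rats, at 36.8, 36.6 and 62.3 CPM in the Sham rats, and at 77.0, 44.3 and 36.0 CPM in the BAIBA rats. All 3 HFE rats were above all HF and Sham rats, while BAIBA rat 1 lay within the HFE range. The mean was 83.7 ± 14.5 CPM (SD, n = 3) in the HFE group against 40.2 ± 16.1 CPM in the HF group, a log2 fold change of 1.06 (standard error 0.29). This did not pass edgeR's quasi-likelihood test over all genes (unadjusted p = 0.00898, adjusted p = 0.627), and the two-sided exact permutation test gave p = 0.1, the smallest that 3 rats against 3 allow. DESeq2, which the submitters' processing notes list, called it at 1.06 (adjusted p = 0.0287). Fits without 1 rat each gave 0.89 to 1.45 in edgeR, and the lowest adjusted p was 0.0855, without HF rat 1. Cardiomyocyte markers also differed between these groups. Of the 8, 4 had an unadjusted p under 0.05 (7.62% of all genes) and 5 did not overlap (14.3%), with higher levels in the HFE rats in each case. The 8 had a median log2 fold change of 0.20, and they summed to 44251 to 50303 CPM in the HFE rats and 42967 to 45640 CPM in the HF rats. Their part in the Tfrc difference was not tested.

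Against the Sham group, at 45.2 ± 14.8 CPM, the HFE group differed in Tfrc by 0.89 on the log2 scale (standard error 0.25, adjusted p = 0.325 from edgeR, and 0.0097 from DESeq2, with the size under the limit on the fold). Cell type markers also differed between HFE and Sham, with an unadjusted p under 0.05 in 11.2% of all genes. It was under 0.05 for 5 of 8 cardiomyocyte markers (4 higher, 1 lower) and 3 of 5 endothelial markers (all higher). So it was for 4 of 7 fibroblast and scar markers and 7 of 9 macrophage markers, all lower. Their part in this Tfrc difference was not tested. Against the BAIBA group the difference in Tfrc depended on 1 library. BAIBA minus HFE was -0.67 (standard error 0.29, edgeR adjusted p = 0.533) with all rats and -1.06 without BAIBA rat 1 (adjusted p = 0.0871). The HF and Sham groups differed by -0.17 (standard error 0.33), with the sign turning to 0.14 without Sham rat 3. BAIBA against HF gave 0.38 (standard error 0.37), and 0.01 without BAIBA rat 1. In a single test of any difference among the 4 groups, Tfrc had an unadjusted p of 0.0436 and an adjusted p of 0.504 in edgeR.

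Time of day is not given for the samples used here, and the clock gene Arntl, which was picked after its values were seen, also varied. It was at 17.7, 10.96 and 3.85 CPM in the HFE rats, between 5.49 and 10.99 CPM in the HF rats, between 2.74 and 4.69 CPM in the Sham rats and between 1.85 and 3.14 CPM in the BAIBA rats. The log2 fold change of Arntl was 0.39 in HFE against HF, 1.61 in HFE against Sham and 1.21 in HF against Sham. It was -1.82 in BAIBA against HF, -2.21 in BAIBA against HFE and -0.59 in BAIBA against Sham. The edgeR adjusted p was 0.25 or more in each. The part of the clock in the Tfrc difference was not tested.

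Slc11a2 encodes DMT1, which carries ferrous iron out of endosomes and across the cell membrane. Its levels were 40.0, 18.9 and 24.9 CPM in the HF rats and 32.3, 20.2 and 21.8 CPM in the BAIBA rats, and they lay between 19.5 and 31.2 CPM in the Sham and HFE rats. The groups overlapped in all 6 comparisons, and the log2 fold changes ran from -0.17 (BAIBA against HF) to 0.27 (HF against Sham). Single libraries decided both: HF against Sham was at -0.09 without HF rat 1, and BAIBA against HF was at -0.40 without BAIBA rat 1 and at 0.19 without HF rat 1. BAIBA against HFE moved from -0.16 to -0.40 without BAIBA rat 1 (edgeR adjusted p = 0.337). HF rat 1 and BAIBA rat 1 were the highest of their groups for both Slc11a2 and Tfrc. Slc39a14 encodes ZIP14, a carrier of iron that is not bound to transferrin. It was at 59.1, 58.1 and 63.9 CPM in the Sham rats and at 73.4, 70.7 and 68.0 CPM in the BAIBA rats, so these groups did not overlap. The difference was 0.23 on the log2 scale (standard error 0.09), with an unadjusted p of 0.0293 and an adjusted p of 0.638 in edgeR, and it was 0.21 without BAIBA rat 1. The HF rats spanned 50.5 to 80.7 CPM and the HFE rats 55.4 to 75.1 CPM, ranges that took in the other groups' means.

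The ferritin subunits could not be followed through the rows that carry their names. Fth1, the heavy chain with ferroxidase activity, was listed at 0 counts in all 12 rats, and since nearly every cell uses it, this 0 gives no level. Ftl1, the light chain, had between 3 and 15 counts per rat, or 0.20 to 0.86 CPM. A row named LOC100360087 and described as similar to ferritin light chain 1, picked after its values were seen, had between 1249 and 2732 counts. RefSeq gives Ftl1 as a synonym of this gene, and its annotation names 6 copies and pseudogenes after Fth1 and 21 after Ftl1. How reads of near-identical copies were shared out is not given in the sources used here, so the values of all ferritin rows are uncertain.

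LOC100360087 was at 90.4, 91.2 and 87.2 CPM in the HFE rats, at 96.2, 110 and 104 CPM in the HF rats, at 102, 116 and 81.5 CPM in the Sham rats and at 153, 89.1 and 122 CPM in the BAIBA rats. The HFE rats were all below the HF rats, by -0.20 on the log2 scale (standard error 0.08, unadjusted p = 0.0388, adjusted p = 0.642 in edgeR). BAIBA against HFE gave 0.44 (standard error 0.18, adjusted p = 0.491 in edgeR), and 0.24 without BAIBA rat 1, which was again the highest library.

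Slc40a1, the ferroportin gene, had its lowest levels in the exercised rats, at 21 to 76 counts per rat over the 12. It was at 2.80, 1.46 and 2.71 CPM in the HFE rats, at 3.26, 4.55 and 4.57 CPM in the BAIBA rats, at 2.40, 4.32 and 4.04 CPM in the HF rats, and at 3.24, 3.45 and 2.94 CPM in the Sham rats. All HFE rats were below all BAIBA and Sham rats, and HF rat 1 lay within the HFE range. BAIBA minus HFE was 0.82 on the log2 scale (standard error 0.31, unadjusted p = 0.0288, adjusted p = 0.445 in edgeR) and 0.97 without BAIBA rat 1 (adjusted p = 0.319). HFE against HF gave -0.62 (standard error 0.35, adjusted p = 0.689), and HFE against Sham -0.46 (standard error 0.29, adjusted p = 0.589). Without HFE rat 2, the lowest library, these were -0.38 and -0.22. The second row named Slc40a1 had at most 1 count in a rat.

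Hamp, the hepcidin gene, was the most variable member within groups. It was at 3.03, 9.44 and 12.6 CPM in the HF rats, at 11.7, 4.44 and 3.53 CPM in the HFE rats, at 9.88, 19.3 and 4.94 CPM in the BAIBA rats and at 12.1, 12.2 and 8.75 CPM in the Sham rats. Its highest rat was at least 2 times its lowest in 3 of the 4 groups, a spread that 10.5% of the 15617 genes kept also had, and it overlapped in all 6 comparisons. The largest of its log2 fold changes was 0.79 in BAIBA against HFE (standard error 0.64, edgeR adjusted p = 0.773), and HFE against Sham was at -0.74 (standard error 0.46), or -1.46 without HFE rat 1 (adjusted p = 0.155). Hepcidin is made mainly in the liver, and of 6 liver markers Alb, Apoa1, Fgb, Apoh and Serpina1 were at most at 0.69 CPM in any rat, while Ttr, which other tissues also make, was at 7.47 to 12.7 CPM. Hfe encodes the HFE protein, a partner of the transferrin receptor that raises hepcidin. It lay between 1.79 and 2.34 CPM in the HF rats, between 2.08 and 2.80 CPM in the HFE rats, between 2.26 and 3.32 CPM in the Sham rats and between 2.11 and 4.38 CPM in the BAIBA rats. Its largest difference, BAIBA minus HF, was 0.66 on the log2 scale (standard error 0.33, edgeR adjusted p = 0.851), and 0.39 without BAIBA rat 1, which was the highest of all rats.

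Ireb2 and Aco1, which encode the iron regulatory proteins (the Aco1 product is the cytosolic aconitase when it holds an iron-sulphur cluster), were the steadiest members with Slc39a14. Ireb2 lay between 15.5 and 26.7 CPM over the 12 rats, and its log2 fold changes ran from -0.18 to -0.01 in the 6 comparisons, with overlap in all of them. Without BAIBA rat 1, its lowest library, the 3 comparisons with the BAIBA group lay between -0.02 and 0.08. Aco1 was at 39.9, 37.0 and 46.1 CPM in the HFE rats and at 47.3, 51.5 and 49.7 CPM in the Sham rats. These groups did not overlap, and the difference was -0.26 on the log2 scale (standard error 0.10, unadjusted p = 0.0247, adjusted p = 0.377 in edgeR). In the HF rats Aco1 was at 44.1, 44.0 and 48.3 CPM, and in the BAIBA rats at 41.0, 43.2 and 51.6 CPM.

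**Figure D1:**
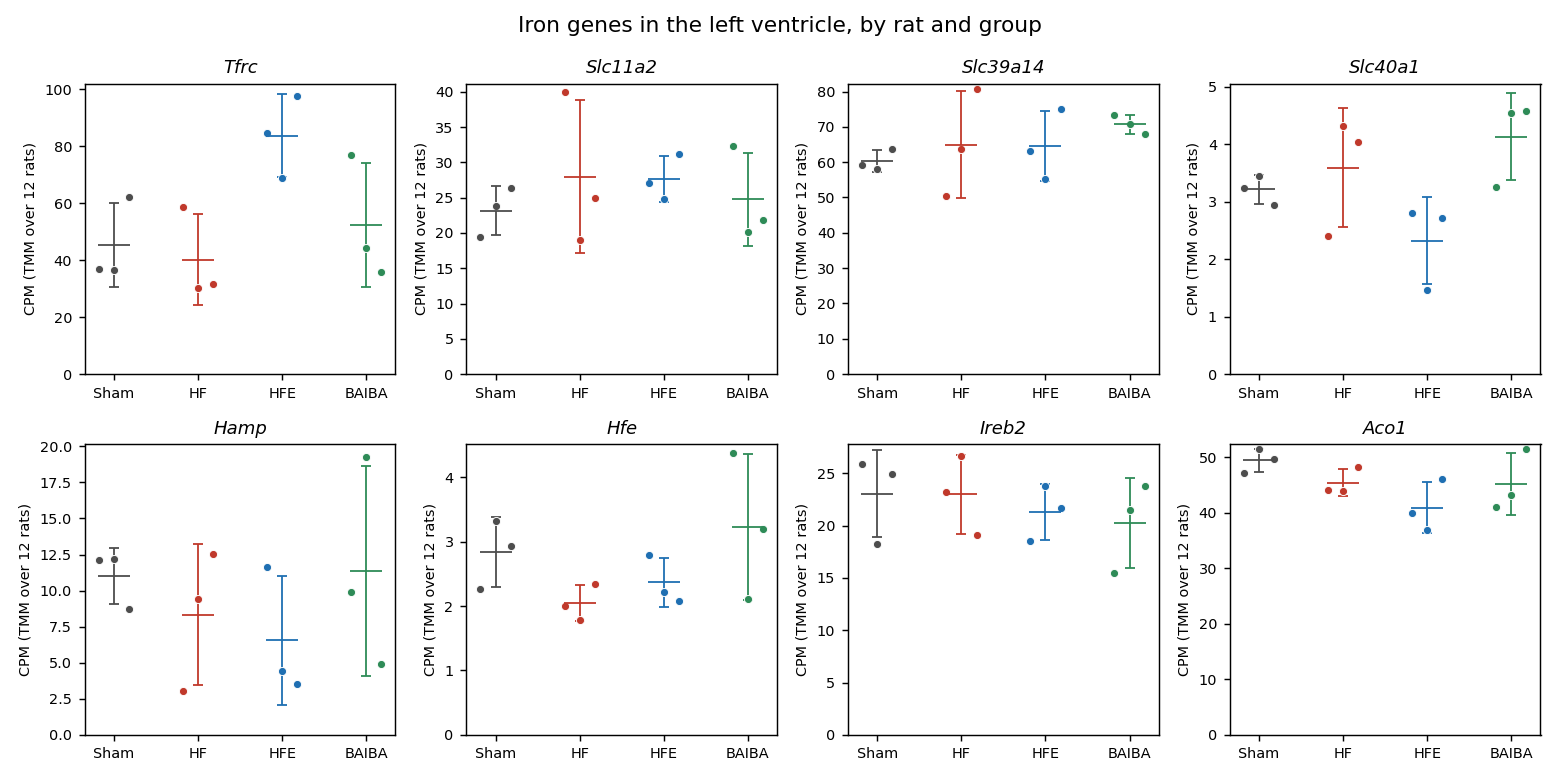
Level of 8 iron genes in each rat (points, CPM scaled with TMM over 12 rats) by group, with the mean (horizontal bar) and SD (whiskers, n = 3). The HFE rats are the highest for Tfrc, at 68.8 to 97.8 CPM with 1 BAIBA rat at 77.0 CPM among them, and hold the lowest Slc40a1 value, 1.46 CPM.

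The members are set here against all genes. Since edgeR called few or no genes of any kind, a count of 0 called members says little about them. In HF against Sham, 0 of 9 member rows were called (0.0% of all genes), 0 had an unadjusted p under 0.05 (6.0% of all genes) and 0 had groups whose rats did not overlap (11.7%). In HFE against HF, 0 of 8 were called (0.0%), 1 had an unadjusted p under 0.05 (7.62%) and 1 had no overlap (14.3%), Tfrc in both cases. In BAIBA against HF the counts were 0 of 9 called (0.0%), 0 by the unadjusted p (5.55%) and 0 without overlap (11.5%). In BAIBA against HFE they were 0 of 8 called (0.0808%), 1 by the unadjusted p (9.57%) and 1 without overlap (15.6%), Slc40a1 in both. Without BAIBA rat 1 the unadjusted p was under 0.05 for 3 of 8 (10.7% of all genes), namely Tfrc, Slc11a2 and Slc40a1. BAIBA against Sham gave 0 of 9 called (0.0402%), 1 by the unadjusted p (7.41%) and 1 without overlap (12.7%), which was Slc39a14, and 0 of 9 by the unadjusted p without BAIBA rat 1 (8.45%). HFE against Sham gave 0 of 8 called (0.0%), 2 by the unadjusted p (11.2%), Tfrc and Aco1, and 3 without overlap (17.8%), the third being Slc40a1. The comparisons share groups, so their counts do not add up as separate evidence. Among the 4 groups at once, 0 of 9 were called (0.0%) and 1 had an unadjusted p under 0.05 (9.71%).

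DESeq2 called 1 member, Tfrc in HFE against HF (0.119% of all genes with an adjusted p). It called 0 members in HF against Sham (0.154%), BAIBA against HF (0.161%), BAIBA against HFE (1.09%), BAIBA against Sham (0.436%) and HFE against Sham (0.467%), and 0 among the 4 groups at once (1.97%). The median log2 fold change of the members was -0.01 in HF against Sham, -0.06 in HFE against HF, 0.12 in BAIBA against HF, 0.14 in BAIBA against HFE, 0.20 in BAIBA against Sham and -0.18 in HFE against Sham, while that of all genes tested was between -0.01 and 0.01. Without BAIBA rat 1 the median was 0.07 in BAIBA against HF and -0.02 in BAIBA against Sham.

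**Figure D2:**
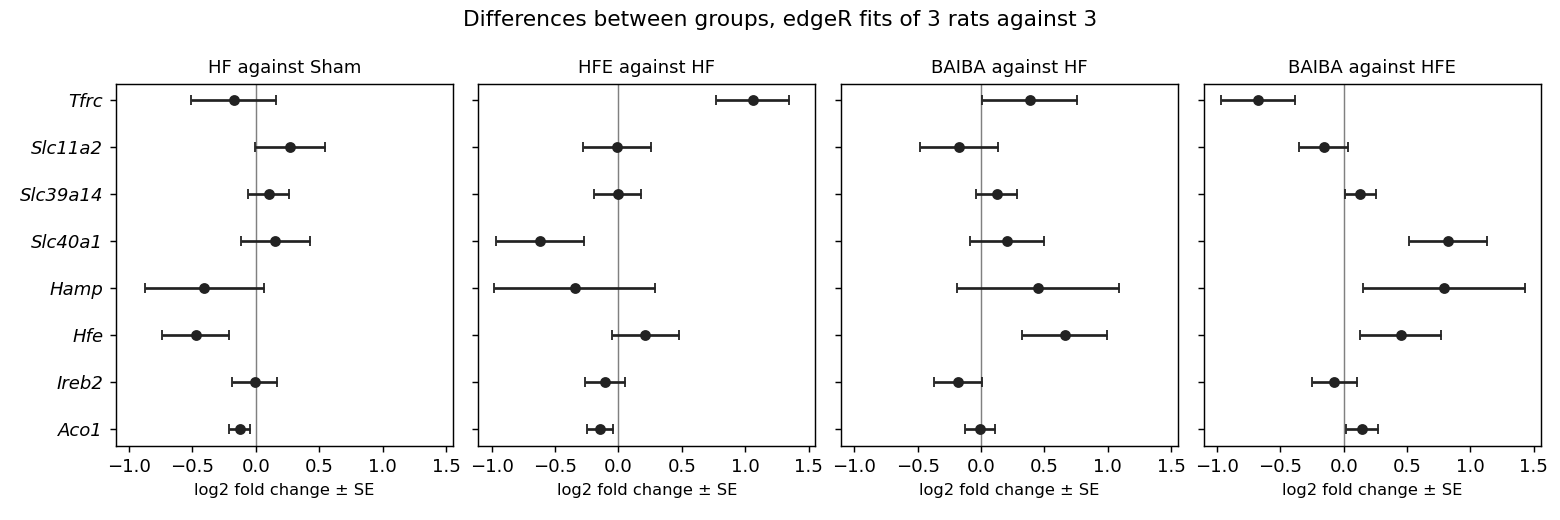
Log2 fold change (x axis) of 8 iron genes with its standard error (whiskers) in 4 comparisons, from edgeR fits of 3 rats against 3. Tfrc at 1.06 in HFE against HF lies farthest from 0 in its panel, and in BAIBA against HFE the points for Slc40a1 (0.82) and Tfrc (-0.67) lie on opposite sides of 0.

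Levels can be compared between genes per length, as FPKM (fragments relative to gene length and library size, the authors' values). Over the 12 rats the median FPKM was 27.6 for Hamp, 13.7 for Slc39a14, 13.0 for Aco1, 10.9 for Tfrc, 6.43 for Ireb2, 4.55 for Slc11a2, 1.03 for Slc40a1, 0.94 for Hfe and 0.60 for Ftl1. Neighbours in this order were not apart in every rat, except for Slc11a2, which was above Slc40a1 in all 12 rats. Aco1 was above Slc39a14 in 5 rats, Tfrc above Aco1 in 4 rats and Hfe above Slc40a1 in 7 rats. The ferritin row LOC100360087 had a median of 181 FPKM and a lowest value of 152 FPKM, above the highest value of any member, 51.8 FPKM for Hamp. In the HFE group the mean FPKM of Tfrc was 17.1 ± 3.06 (SD, n = 3), against 8.48 ± 3.87 in the HF group.

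**Figure D3:**
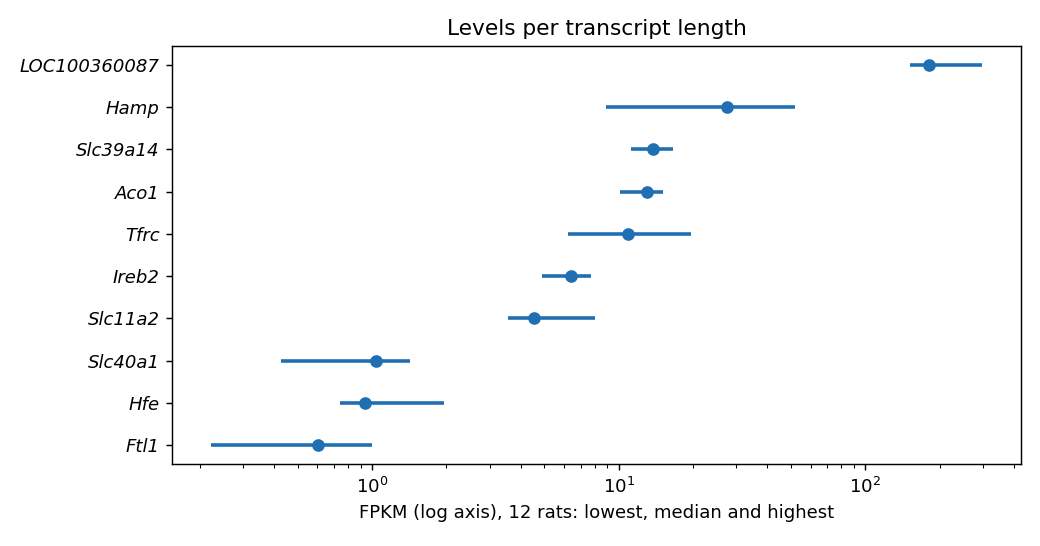
Range (line) and median (point) of the FPKM of 9 iron gene rows and of the ferritin row LOC100360087 over 12 rats, on a log axis. LOC100360087, at 152 to 297 FPKM, lies above all the others, and Slc40a1, Hfe and Ftl1 have medians of 1.03 FPKM or less.

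Among the related genes, several that recover heme or ferritin iron were lowest in the exercised rats. They were named for their low p, and the heme recovery list as a whole was split. Of its 11 genes tested, 5 had estimates above 0 and 6 below in HFE against HF, and 6 above and 5 below in BAIBA against HFE. Cd163, the macrophage receptor for hemoglobin bound to haptoglobin, was at 9.33, 8.26 and 13.7 CPM in the HFE rats, at 15.9, 22.0 and 41.5 CPM in the HF rats and at 26.9, 22.9 and 24.8 CPM in the BAIBA rats. The HFE rats were below all rats of both other groups. HFE against HF gave -1.34 on the log2 scale (standard error 0.38, edgeR adjusted p = 0.627), and BAIBA against HFE gave 1.25 (standard error 0.19, edgeR adjusted p = 0.0986, DESeq2 adjusted p = 1.16e-05), or 1.19 without BAIBA rat 1. Hmox1, which releases iron from heme, was at 6.80, 5.55 and 8.45 CPM in the HFE rats, at 7.95, 18.7 and 14.8 CPM in the HF rats, at 11.9, 12.7 and 20.6 CPM in the BAIBA rats and at 13.7, 16.1 and 17.7 CPM in the Sham rats. BAIBA against HFE was at 1.12 (standard error 0.26, edgeR adjusted p = 0.188, DESeq2 adjusted p = 0.0087), or 1.26 without BAIBA rat 1, and HFE against HF at -0.99 (standard error 0.32, edgeR adjusted p = 0.627).

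Scara5, a receptor that takes up ferritin, was also lowest in the HFE group, with -0.77 against Sham in DESeq2 (adjusted p = 0.0058). It was at 10.1, 11.9 and 12.9 CPM in the HFE rats, at 18.2, 16.7 and 27.2 CPM in the HF rats and at 36.0, 17.2 and 34.5 CPM in the BAIBA rats, with no overlap of the HFE rats with either. The log2 fold change was -0.83 (standard error 0.20, edgeR adjusted p = 0.627) in HFE against HF and 1.33 (standard error 0.28, edgeR adjusted p = 0.179, DESeq2 adjusted p = 0.000451) in BAIBA against HFE, or 1.15 without BAIBA rat 1. Alas1, the first enzyme of heme synthesis, was highest in the HFE group, at 227, 241 and 264 CPM in the HFE rats, 210, 145 and 172 CPM in the HF rats and 177, 119 and 126 CPM in the BAIBA rats. For Alas1 in HFE against Sham DESeq2 gave 0.47 (standard error 0.11, adjusted p = 0.00787). HFE against HF gave 0.47 (standard error 0.14, edgeR adjusted p = 0.627) and BAIBA against HFE -0.79 (standard error 0.16, edgeR adjusted p = 0.164, DESeq2 adjusted p = 0.000642). Without BAIBA rat 1 the latter was at -0.996 (edgeR adjusted p = 0.0286), with a size just under the limit on the fold.

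Markers of macrophages, which recycle heme iron, differed in the same comparisons. The 10 markers, Cd163 among them, summed to 111 to 166 CPM in the HFE rats, 154 to 249 CPM in the HF rats, 205 to 257 CPM in the Sham rats and, in the BAIBA rats, 180 and 215 CPM beside the 1031 CPM of rat 1. In HFE against HF, 9 of the 9 markers tested had estimates below 0 (7719 of 14938 for all genes), with a median log2 fold change of -0.48. Of them 2 had an unadjusted p under 0.05 (7.62% of all genes). In HFE against Sham 9 of 9 were also below 0 (7255 of 14804 for all genes), with a median of -0.68. There 7 had an unadjusted p under 0.05 (11.2%). In BAIBA against HFE, 9 of 9 had estimates above 0 (7439 of 14844 for all genes), with a median of 1.10, and 5 had an unadjusted p under 0.05 (9.57%). Without BAIBA rat 1 these became 8 of 9, a median of 0.47 and 3 (10.7% of all genes). Erythroid markers, which carry heme iron themselves, also moved in BAIBA against HFE. Of 7 tested, 3 had an unadjusted p under 0.05 (9.57% of all genes), all higher in the BAIBA rats. The 8 in the list summed to 919 to 1310 CPM in the BAIBA rats and 724 to 837 CPM in the HFE rats. In the same comparison 3 of 5 endothelial markers (all lower) and 3 of 8 cardiomyocyte markers (1 higher, 2 lower) had an unadjusted p under 0.05. So had 1 of 8 fibroblast and scar markers (higher). All 8 scar estimates were above 0, and 4 of 8 without BAIBA rat 1. The part of any of these cell types in the differences in Cd163, Hmox1, Scara5 and Slc40a1 was not tested.

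**Figure D4:**
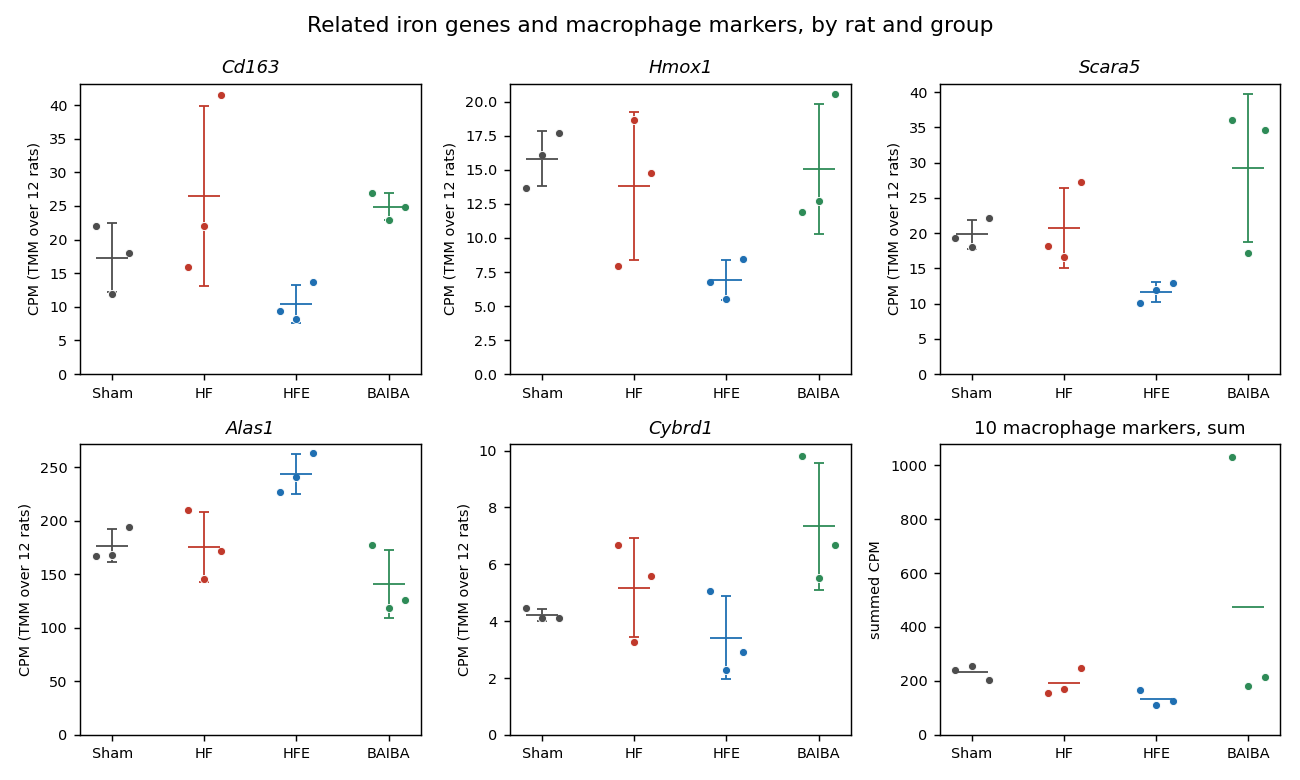
Level in each rat (points, CPM) of 5 genes related to iron handling, with the group mean and SD (n = 3), and the summed CPM of 10 macrophage markers with the group mean alone. The HFE rats are below all BAIBA rats for Cd163, Hmox1, Scara5 and Cybrd1 and above them for Alas1, and BAIBA rat 1 is at 1031 CPM in the macrophage panel.

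The related lists were described by counts in the main comparisons, and edgeR called 0 genes of any of them. For the transferrin cycle and ferric reductases, 6 genes were tested. All 6 estimates were above 0 in BAIBA against HF (median 0.36, 7231 of 15039 for all genes) and in BAIBA against Sham (median 0.19, 7600 of 14920). In HF against Sham and in HFE against Sham 5 were below 0 (7193 of 14957 and 7255 of 14804 for all genes). In HFE against HF 3 were above 0 and 3 below. In BAIBA against HFE all 6 estimates were above 0 (median 0.49) and 4 had an unadjusted p under 0.05, against 7439 of 14844 genes above 0 and 9.57% of all genes under 0.05. Without BAIBA rat 1 all 6 were above 0 (median 0.33) and 2 were under 0.05 (10.7% of all genes). Among them Steap2, a ferric reductase, was at 0.70 (standard error 0.21, edgeR adjusted p = 0.294) and Cybrd1, the duodenal type ferric reductase, at 1.10 (standard error 0.34, edgeR adjusted p = 0.337), or 0.60 and 0.83 without BAIBA rat 1. Steap3, the endosomal reductase that acts with the transferrin receptor, was at -0.46 in HF against Sham (standard error 0.17, edgeR adjusted p = 0.805) and at 0.63 in BAIBA against HF (standard error 0.20, edgeR adjusted p = 0.851). Its levels were 15.8, 10.4 and 12.4 CPM in the HF rats, and 23.5, 16.1 and 20.2 CPM in the BAIBA rats, which were all higher.

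For mitochondrial iron and iron-sulphur clusters, 2 of 17 genes had an unadjusted p under 0.05 in HF against Sham, 2 of 16 in HFE against HF, 1 of 16 in BAIBA against HF and 1 of 16 in BAIBA against HFE. The shares of all genes were 6.0%, 7.62%, 5.55% and 9.57% in the same order, and they hold for the other lists too. Without BAIBA rat 1, 2 of 16 were under 0.05 in BAIBA against HF (4.78% of all genes) and 3 of 16 in BAIBA against HFE (10.7%). Iscu, the scaffold on which clusters are built, was at 103, 145 and 139 CPM in the HF rats and at 96.0, 90.5 and 85.7 CPM in the Sham rats, a difference of 0.50 (standard error 0.14, edgeR adjusted p = 0.805), and BAIBA against HF was at -0.46 (standard error 0.18). Glrx5, which passes clusters on, was at -0.27 in HF against Sham (standard error 0.08), and Cisd1, a cluster protein of the outer mitochondrial membrane, was at 0.19 in HFE against HF (standard error 0.07). Neither passed the adjusted test. A second row named Nfs1, the enzyme that supplies sulphur for clusters, was called by DESeq2 in BAIBA against Sham (-4.75, adjusted p = 0.00899) and in HFE against Sham (-4.20, adjusted p = 0.016). Its 3 Sham rats had 150, 3 and 13 counts and the 6 BAIBA and HFE rats 1 to 3 counts, so 1 Sham library held most of the difference. The other Nfs1 row, at 11.5 to 45.7 CPM, was at -0.34 and 0.32 in these comparisons and was not called.

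For heme iron recovery and transport, 11 genes were tested, and 1, 2, 0 and 4 of them had an unadjusted p under 0.05 in HF against Sham, HFE against HF, BAIBA against HF and BAIBA against HFE. In HFE against Sham there were 6, with 2 higher and 4 lower (11.2% of all genes), and DESeq2 called Hmox1 lower at -1.19 (adjusted p = 7.09e-05). Of 9 macrophage markers 7 were lower in that comparison with an unadjusted p under 0.05, and their part in these differences was not tested. Flvcr1, a heme exporter, was at 0.55 in HF against Sham (standard error 0.22, edgeR adjusted p = 0.805). Of the 4 genes tested for ferritin turnover and iron chaperones, Scara5 had an unadjusted p under 0.05 in HFE against HF and in BAIBA against HFE. Of 5 genes for ferroxidases and other iron carriers, Slc22a17, a receptor for lipocalin 2, was at 0.31 in HF against Sham (standard error 0.11) and at -0.36 in BAIBA against HF (standard error 0.12), with edgeR adjusted p of 0.805 and 0.851.

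The control genes of hepcidin stayed near the background. Of 15 tested, 1 had an unadjusted p under 0.05 in HF against Sham and 0 did in the other 3 main comparisons. That gene was Id1, a target of BMP signalling, at 50.4, 38.3 and 51.0 CPM in the HF rats and 31.7, 32.5 and 38.1 CPM in the Sham rats, a difference of 0.44 (standard error 0.14, edgeR adjusted p = 0.805). Without BAIBA rat 1, 1 of the 15 was under 0.05 in BAIBA against HFE (10.7% of all genes). Of 5 genes for ferroptosis defence, Aifm2, which protects membrane lipids from oxidation, was at 0.40 in BAIBA against HFE (standard error 0.14, edgeR adjusted p = 0.426) and at 0.33 without BAIBA rat 1. It alone had an unadjusted p under 0.05 there, and 0 of 5 did without BAIBA rat 1. In the other 3 comparisons 0 had an unadjusted p under 0.05.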

How the data were processed

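RNA was extracted with TRIzol, and mRNA was captured on oligo(dT) beads for paired-end libraries. The authors used HISAT2 for alignment, StringTie for assembly and featureCounts for counting, and they deposited the raw counts. The deposited FPKM values rescale them by gene length and library total. The submitters' processing notes list mm9, a mouse build, while the gene identifiers are those of rat, so the build is unsettled and coordinates are printed only for RefSeq promoter windows. Tool versions and whether counting used the strand are not given in the sources used here.

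Counts were fitted with edgeR 4.0.16 under R 4.3.3 (TMM, filterByExpr, robust quasi-likelihood fits of the 2 groups compared, no covariate). Each standard error is the size of a log2 fold change over the root of its F. For single genes, log2(CPM + 0.1) was also put to an exact permutation test (two-sided). Alternatives were DESeq2 1.42.0, RLE normalization, scaling by library size alone, a minimum of 10 counts in each library or of 1 count in any, 1 joint fit over the 12 rats, a block on replicate number, fits that leave out 1 rat, no limit on the fold change, an unadjusted p, and limma 3.58.1 on log2(FPKM + 1) and log2(FPKM + 0.1) where the mean FPKM reached 0.1. The procedure was tested only on simulated counts with changes larger than those of the members, so that test does not bear on differences of their size.

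The members, lists and tests were chosen with earlier results of these data known. Related genes are named where edgeR or DESeq2 called them or where they had 1 of the 2 lowest unadjusted p under 0.05 of their list in a main comparison, and genes picked later are marked as such. For each member the 3 genes with the closest levels are named, except 1 that is not reported here. Groups came from the sample titles. No replicates were identical. Same-numbered rats are numbered by the titles and are different animals. Their deviations from the group means correlated at 0.118 to 0.224 in BAIBA against HFE, and at 0.1 or less for at least 1 pair in each other comparison. The labels give no pairing, so the block on the number was run as an alternative alone. Nothing in the labels says more of the replicates, so p-values measure the spread between these samples. The number of counts limits the precision of Ftl1, Hfe and Slc40a1.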

Additional observations from a re-analysis of the deposited data

How the results depend on the processing

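The count of members called was 0 in each comparison with edgeR. DESeq2 raised it to 1 in HFE against HF (Tfrc). An unadjusted p with no limit on the fold change gave 1 in HFE against HF, 1 in BAIBA against HFE, 1 in BAIBA against Sham and 2 in HFE against Sham, and 1 in the test among the 4 groups. With the replicate block the count stayed at 0 in every comparison, and the blocked log2 fold change of Tfrc was 1.12 in HFE against HF, with an edgeR adjusted p of 0.553. In BAIBA against HFE the deviations of each same-numbered pair correlated above 0.1, though the labels give no pairing. The blocked values there were -0.73 for Tfrc (edgeR adjusted p = 0.421) and 0.84 for Slc40a1 (0.369). The block changed no call. Leaving out each rat in turn gave counts from 0 to 0. Of 51 log2 fold changes of members, 30 kept their sign under all alternatives. The largest of them with 1 sign were those of Tfrc in HFE against HF (0.89 to 1.45, adjusted p from 0.0287 to 0.827 over the tools and settings), of Tfrc in HFE against Sham (0.75 to 1.20) and of Slc40a1 in BAIBA against HFE (0.43 to 0.98). Hamp in HFE against Sham moved to -1.46 without HFE rat 1. Values near 0 changed sign most often. For Ftl1, Hfe and Slc40a1, with at most 78 counts in a rat, small differences were not detectable at this depth.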

Other observations

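The genes whose levels followed each member most closely were found by the Pearson correlation of log2 CPM over the 12 rats among 14214 genes with a symbol. The points share libraries and groups, and the 3 closest of so many genes are high by selection, so the values are a description. For Slc40a1 they included Cpt1a (r = 0.93) and Pank1 (0.92). For Tfrc they were Rpl28 (0.88), Timm17a (0.87) and Rer1 (0.87). Slc11a2 was followed by Tdg (0.93), Ddx39a (0.91) and Cerk (0.91), and Slc39a14 by E2f6 (0.92), Fitm2 (0.89) and Sox8 (0.88). The closest to Hfe were Slc11a1 (0.92), Vkorc1 (0.91) and Tpd52 (0.90), and to Hamp they were Ypel5 (0.87), Eif5b (0.86) and Sod3 (0.84). Ireb2 was followed by Fmn1 (0.95), Nufip2 (0.94) and Pdpk1 (0.94), and Aco1 by Furin (0.93), Pc (0.89) and Acot11 (0.87). For Ftl1, at 3 to 15 counts per rat, they were RGD1565785 (0.89), Hmgb1 (0.87) and Flt3 (0.83).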
